A study of Mus musculus with 15 samples.

Results

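The genes of the cytosolic ribosomal proteins were followed across chromatin accessibility maps of mouse CD4+ T cells. Members were the protein-coding genes of the mouse annotation whose symbol is Rpl or Rps followed by digits and optional letters, the S6 kinase genes (Rps6k) left out. The rule found 80 of 21896 protein-coding genes, 49 of the large subunit and 31 of the small. Accessibility was measured by ATAC-seq, in which a transposase cuts and tags DNA that is not packed away, so that reads pile up over open promoters and enhancers. Peaks of the 15 libraries were merged into regions, and the regions within 1 kb of a member gene that were called in at least 2 libraries were kept. This gave 105 of 83743 regions, at 76 of the 80 genes (46 large-subunit and 30 small-subunit).

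The cells came from mice of genotype IRF5+/+ (wild type) and IRF5-/- (knockout of Irf5, an interferon regulatory factor gene). Each genotype was profiled untreated (0 h) and after activation (72 h). There were 4 wild-type libraries at each time, 3 knockout libraries at 0 h (numbered 1, 3 and 4) and 4 knockout libraries at 72 h. The labels used here do not give the age or sex of the mice, the extent of the deletion, or the activating agent. They do not say that libraries of a group came from separate mice or cultures, so a p-value here reflects how far these libraries scatter, and that scatter may be technical. No sequencing batch is named in the labels.

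Cytosolic ribosomes are built from ribosomal RNA and a fixed set of proteins, each encoded mainly by a single active gene, and the large and small subunits join on a messenger RNA. Resting T cells make little protein; on activation they enlarge, and ribosome production rises before they divide. Ribosomal protein genes are housekeeping genes with short, strongly open promoters. Their transcripts start with a C inside a run of pyrimidines, the 5′ terminal oligopyrimidine (TOP) tract, through which mTORC1 controls their translation.

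The start sites of 10 members on which the results below turn are shown so that their promoters can be compared. Each sequence is from RefSeq (GRCm38.p6, the assembly of mm10), runs 5′ to 3′ on the gene's strand, and holds the 40 bases before the annotated start and the 20 bases from it on. The first 4 have the pyrimidine run at the start in capitals. Capitals in Rpl38, Rpl31, Rpl11 and Rps21 mark CCGGAAG, the core bound by ETS factors, and those in Rps19 mark a palindrome, TCTCG followed by CGAGA. Rps23 and Rpl13 held none of these marks in the window.
Rpl28 (chr7:4792925-4792984, plus strand): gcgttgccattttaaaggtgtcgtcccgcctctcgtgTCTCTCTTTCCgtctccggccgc
Rps9 (chr7:3704001-3704060, plus strand): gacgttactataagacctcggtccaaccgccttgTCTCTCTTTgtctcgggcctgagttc
Rps6 (chr4:86857348-86857407, minus strand): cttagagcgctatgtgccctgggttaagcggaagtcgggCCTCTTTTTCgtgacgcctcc
Rpl38 (chr11:114668540-114668599, plus strand): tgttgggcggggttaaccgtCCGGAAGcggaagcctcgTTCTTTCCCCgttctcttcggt
Rpl31 (chr1:39367811-39367870, plus strand): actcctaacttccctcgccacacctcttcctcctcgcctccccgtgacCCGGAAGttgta
Rpl11 (chr4:136053374-136053433, minus strand): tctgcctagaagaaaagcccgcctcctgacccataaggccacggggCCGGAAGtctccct
Rps21 (chr2:180257339-180257398, plus strand): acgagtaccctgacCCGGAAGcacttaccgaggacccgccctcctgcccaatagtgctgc
Rps19 (chr7:24884552-24884611, plus strand): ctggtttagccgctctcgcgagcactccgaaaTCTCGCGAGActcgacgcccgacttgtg
Rps23 (chr13:90923082-90923141, plus strand): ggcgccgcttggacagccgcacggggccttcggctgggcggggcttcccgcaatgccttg
Rpl13 (chr8:123102310-123102369, plus strand): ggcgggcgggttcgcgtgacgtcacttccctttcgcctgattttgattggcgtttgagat

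RefSeq promoter windows (250 bases before the start to 50 after it) were found for 61 of the 80 genes, and 55 of these had a start inside a region called in all 15 libraries. Motifs were searched on both strands in the whole window and are described with no test; matches of different motifs can overlap. CCGGAAG was present at 22 of the 55 open member starts (40%), beside 22.6% of the 8639 protein-coding genes with a start in such a region. The palindrome was present at 6 of the 55 (10.9%, beside 1.37%): Rpl10a, Rpl12, Rpl26, Rps19, Rps28 and Rps6. A C at the annotated start followed by 4 pyrimidines, the shape of a TOP tract, was found at 12 of the 55 (21.8%, beside 2.48%). A run of at least 8 pyrimidines within 5 bases of the start was found at 22 of the 55 (40%, beside 10.3%). The other shares were 14.5% beside 8.42% for AAGATGG (YY1), 60% beside 72.3% for GGGCGG (SP1), 7.27% beside 6.34% for TATAAA, 10.9% beside 11.9% for CACGTG (the E-box of Myc), and 3.64% beside 4.34% for TGANTCA (AP-1). GAAA, any 2 bases and GAAA again, a form of the element bound by interferon regulatory factors, stood at 7 of the 55 (12.7%, beside 3.21%): Rpl27a, Rpl38, Rpl4, Rpl5, Rps19, Rps23 and Rps7. At Rpl27a and Rpl4 the match lay inside the pyrimidine run at the start, of 20 and 14 bases, read on the other strand. Away from the start, the matches at Rpl5 and Rps7 (at −128 and −214) were also pyrimidines alone on the gene's strand. The match at Rps23 (at −161) was purines alone. The share thus includes plain pyrimidine or purine runs, and binding was not measured. Because the knockout removes an interferon regulatory factor, matches at 3 of the 7 genes are shown in 30 bases each, with the match in capitals on the gene's strand.
Rpl38 (chr11:114668469-114668498, plus strand): cagggctgctGAAATTGAAAtgatgaacgc
Rpl5 (chr5:107900390-107900419, plus strand): aaagcctctaTTTCCCTTTCtcatcgccca
Rps23 (chr13:90922951-90922980, plus strand): tcatttgcctGAAAAGGAAAtaacagcgta

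Depth was 20531236 to 29000534 fragments per library after filtering. Heights are given in ppm, the pileup per 1000000 of these fragments, and 1 fragment was worth 0.0345 to 0.0487 ppm. The knockout library 3 at 0 h stood apart from the others, with 29994 peaks against 39807 to 69086 in the other 14. Mean fragment length was 142 to 182 bp at 0 h and 140 to 168 bp at 72 h, and the duplicate share 0.17 to 0.29 at 0 h and 0.14 to 0.17 at 72 h; their part in the differences with time was not tested. Of the targeted gene, Irf5, 3 regions were tested and 1 was called in all 15 libraries, at 2.1 to 2.53 ppm in wild type and 0.918 to 2.53 in knockout at 0 h, and 1.11 to 1.78 and 1.03 to 1.38 at 72 h. Which exons were removed is not stated in the labels, so this region does not check the genotype labels. All 7 CD4 T cell markers examined (Cd3e, Cd3d, Cd3g, Cd4, Lck, Cd5 and Cd28) had a region called in all 15 libraries. Their summed pileup was 43.5 to 128 ppm at 0 h (94.6 to 128 without knockout library 3) and 32.4 to 53.4 at 72 h. Of the markers of other cells, Ms4a1, Lyz2, Ncr1 and Klrb1c had no region, while Cd8b1, Cd79a, Pax5 and Spi1 had one in every library. Summed pileup at 0 h and 72 h was 1.42 to 4.95 and 0.5675 to 1.25 for CD8 markers, 2.72 to 8.70 and 5.63 to 8.42 for B cell markers, 4.51 to 13.6 and 4.23 to 7.81 for myeloid markers, and 0 and 3.78 to 7.35 for NK markers (Klrk1). Without knockout library 3 the lowest sums at 0 h were 3.92, 5.58 and 5.31 for the CD8, B cell and myeloid markers. The part of other cells in the results below was not tested.

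Chromatin at the ribosomal protein genes was open in resting and activated cells of both genotypes. Of the 105 regions, 81 (77.1%) were called in all 15 libraries, beside 25.3% of all regions and 30.4% of those within 1 kb of a protein-coding gene. These 81 regions covered 75 of the 80 genes. No region was found at Rpl10l and Rpl39l, the paralogs of Rpl10 and Rpl39 known from the testis, or at Rpl32l and Rps27rt, and Rpl37rt had only regions that were not called in every library. A RefSeq start lay inside 55 of the 81 regions, 7 lay away from a listed start, and for 19 no start was listed. At 24 of the 81 another protein-coding gene lay within 1 kb, so that the peak may belong to either gene.

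The height of each region was its highest MACS2 pileup, the number of fragments over the peak summit, in ppm. Median heights of the 81 regions in wild type at 0 h were 6.20, 7.66, 8.29 and 9.06 ppm, and at 72 h 3.61, 3.88, 3.52 and 3.11. In knockout they were 6.50, 3.06 and 7.74 at 0 h (libraries 1, 3 and 4) and 2.98, 3.35, 3.24 and 2.95 at 72 h. The wild-type groups did not overlap, whereas knockout library 3 at 0 h lay inside the range of the 72 h libraries. The medians of all 21176 regions called in every library were 3.88, 4.41, 4.94 and 5.07 in wild type at 0 h and 2.68, 2.90, 2.79 and 2.29 at 72 h, again without overlap. In each library the median member stood above the library's own median. The median member stood at the percentile 71.6 of all these regions at 0 h and 64.1 at 72 h, and 60 of the 81 had a lower percentile at 72 h.

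**Figure D1:**
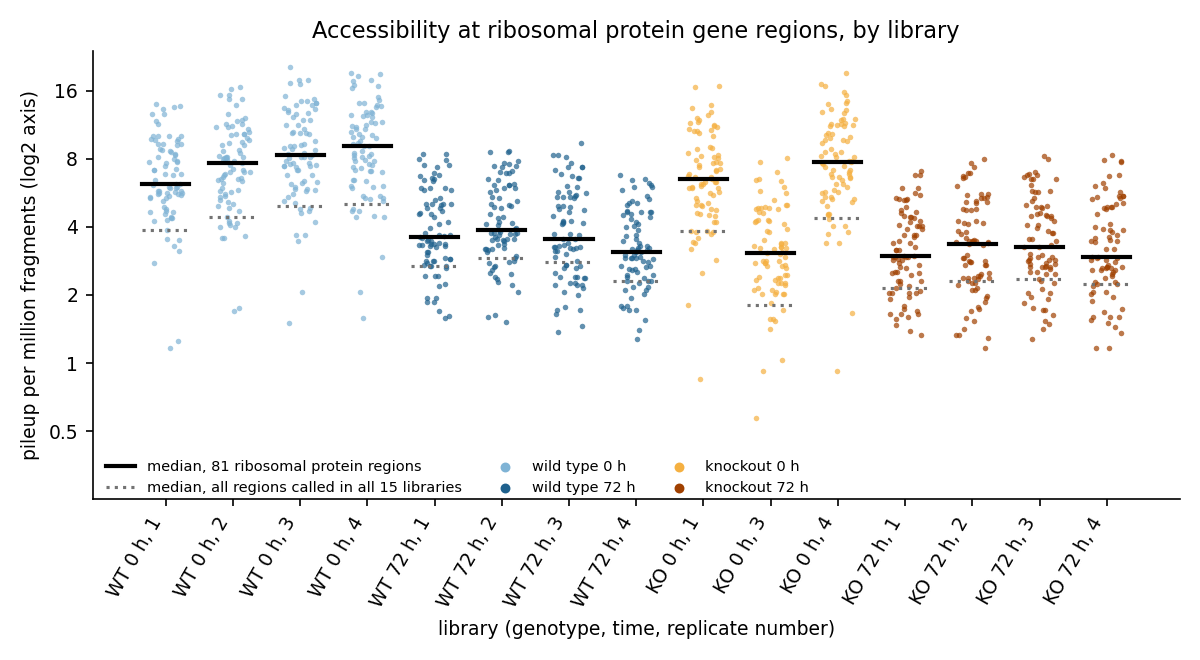
Highest pileup in ppm (log2 axis) at the 81 ribosomal protein regions in each of the 15 libraries; each point is a region, the solid line is their median and the dotted line the median of all 21176 regions called in every library. Member medians lie at 6.20 to 9.06 in wild type at 0 h and 3.11 to 3.88 at 72 h, and knockout library 3 at 0 h, at 3.06, sits with the 72 h libraries.

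Within the 81 regions the heights spanned a wide range. The highest mean was at Rpl15, a large-subunit protein gene whose region (chr14:18270393-18271801) also lies within 1 kb of Nkiras1, with 14, 16.7, 17.8 and 18.9 in the wild-type libraries at 0 h, 7.5, 7.58, 7.16 and 6.03 in wild type at 72 h, 16.5, 7.77 and 17.1 in knockout at 0 h, and 6.76, 7.67, 6.74 and 7.91 in knockout at 72 h. Rpl37 (region also near Card6), Rps29 and Rps14 were also among the tallest, with wild-type means at 0 h of 17.3 ± 3.08, 15.9 ± 2.54 and 16 ± 1.80 (SD, n = 4). These 4 differed by less than the spread between libraries. The lowest were Rps15a region 1, with 1.48 ± 0.229 in the same libraries, and Rps19 region 2, with 1.78 ± 0.383; both lie away from the listed start. Among regions holding a start, those of Rpl4 (also near Zwilch), Rpl23 and Rpl19 had the lowest means over all 15 libraries, with 3.48 ± 0.574, 3.75 ± 0.506 and 4.13 ± 0.325 in wild type at 0 h (SD, n = 4). At that time Rpl13 region 1 (3.76 ± 0.830) was as low. Where a start was listed, the summit lay close to it: at 49 of 55 members (89.1%) it was within 200 bp at 0 h and at 47 (85.5%) at 72 h, beside 81.9% and 81.8% of the 8041 regions that hold a start of a protein-coding gene. The median summit stood 24 bp before the start at 0 h and 27.5 bp before it at 72 h (members' median offsets −24 and −27.5, all start regions −30 and −29). Farther than 200 bp at 0 h were Rpl38 (offset 498 bp), Rpl39 (−255), Rps19 (−202), Rps25 (−330), Rps26 (−326) and Rpl10 (−401). From 0 h to 72 h the offset went from 13 to −490 bp at Rpl4 and from −66 to 1268 bp at Rpl41. Heights at these genes are therefore those of the region and not of the start itself.

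Activation of wild-type cells was accompanied by lower pileup at nearly every ribosomal protein gene. Of the 81 regions, 78 fell and 0 rose at 72 h (limma on log2 ppm, Benjamini-Hochberg adjusted p under 0.05 over all 21176 regions). The same test called 65.2% of all regions lower and 5.14% higher (70.3% in all), so the direction was that of most open regions. Differences are 72 h minus 0 h, or knockout minus wild type, in log2 ppm unless said to be relative to the library median. The median member difference was −1.03 (all regions −0.81). With the authors' fold enrichment over local background in place of pileup, the median was −0.38 (all −0.25), with 59 regions lower and 0 higher beside 36.3% and 4.93% of all regions. At 78 of the 81 every 72 h library lay below every 0 h library, beside 66.7% of all regions, and at 0 they lay above, beside 5.56%. By subunit, 48 of 49 large-subunit and 31 of 33 small-subunit regions fell (1 region lies near a gene of each subunit and counts in both). A height in ppm is a share of the library's fragments. Wild-type libraries had 39807 to 47790 peaks at 0 h and 59243 to 69086 at 72 h, and the part of this change in the falls was not tested. Whether a lower pileup means fewer cells with an open promoter, less opening per cell or neither cannot be told apart in bulk libraries.

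The deepest falls were at Rps23, Rpl39, Rps9, Rps18 and Rpl28. Rps23, a protein of the decoding centre of the small subunit (chr13:90922596-90923791), had 8.75, 9.41, 10.5 and 11.3 in the wild-type libraries at 0 h, 3.41, 3.88, 2.83 and 3.11 in wild type at 72 h, 7.66, 3.40 and 9.69 in knockout at 0 h, and 2.49, 2.70, 2.65 and 3.41 in knockout at 72 h. Every 72 h library was well below every wild-type 0 h library, and knockout library 3 at 0 h was the lowest untreated one. The wild-type difference was −1.60 (SE 0.26) in log2, with a limma adjusted p of 1.91e-08. Rpl39, a small protein of the tunnel through which the new chain leaves (chrX:37084497-37085878), had 6.20, 6.76, 8.94 and 9.34 in the wild-type libraries at 0 h, 2.88, 2.65, 2.68 and 2.26 in wild type at 72 h, 6.50, 2.95 and 7.01 in knockout at 0 h, and 2.54, 2.38, 2.52 and 2.81 in knockout at 72 h. The wild-type groups did not overlap, and the difference was −1.56 (SE 0.27) (limma adjusted p = 5.89e-08). Rpl28, whose start sequence is among those shown (chr7:4792415-4793437), had 9.68, 11.9, 13.4 and 13.5 in the wild-type libraries at 0 h, 4.99, 4.54, 4.75 and 4.04 in wild type at 72 h, 10.6, 5.01 and 11.3 in knockout at 0 h, and 2.89, 4.12, 4.4 and 3.60 in knockout at 72 h. Its wild-type difference was −1.40 (SE 0.26) (limma adjusted p = 6.37e-07), with no overlap between the times. The regions of Rps9 (chr7:3703651-3704777) and Rps18 (region 1, chr17:33951074-33952190, also near B3galt4) fell by similar amounts. Rps9 had 7.23, 8.10, 9.26 and 10.01 at 0 h and 2.88, 3.19, 3.25 and 2.80 at 72 h in wild type, and a difference of −1.51 (SE 0.27) (limma adjusted p = 1.48e-07). Rps18 region 1 had 6.11, 6.83, 7.69 and 7.92 at 0 h and 2.84, 2.83, 2.22 and 2.92 at 72 h, and a difference of −1.40 (SE 0.27) (limma adjusted p = 1.25e-06).

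**Figure D2:**
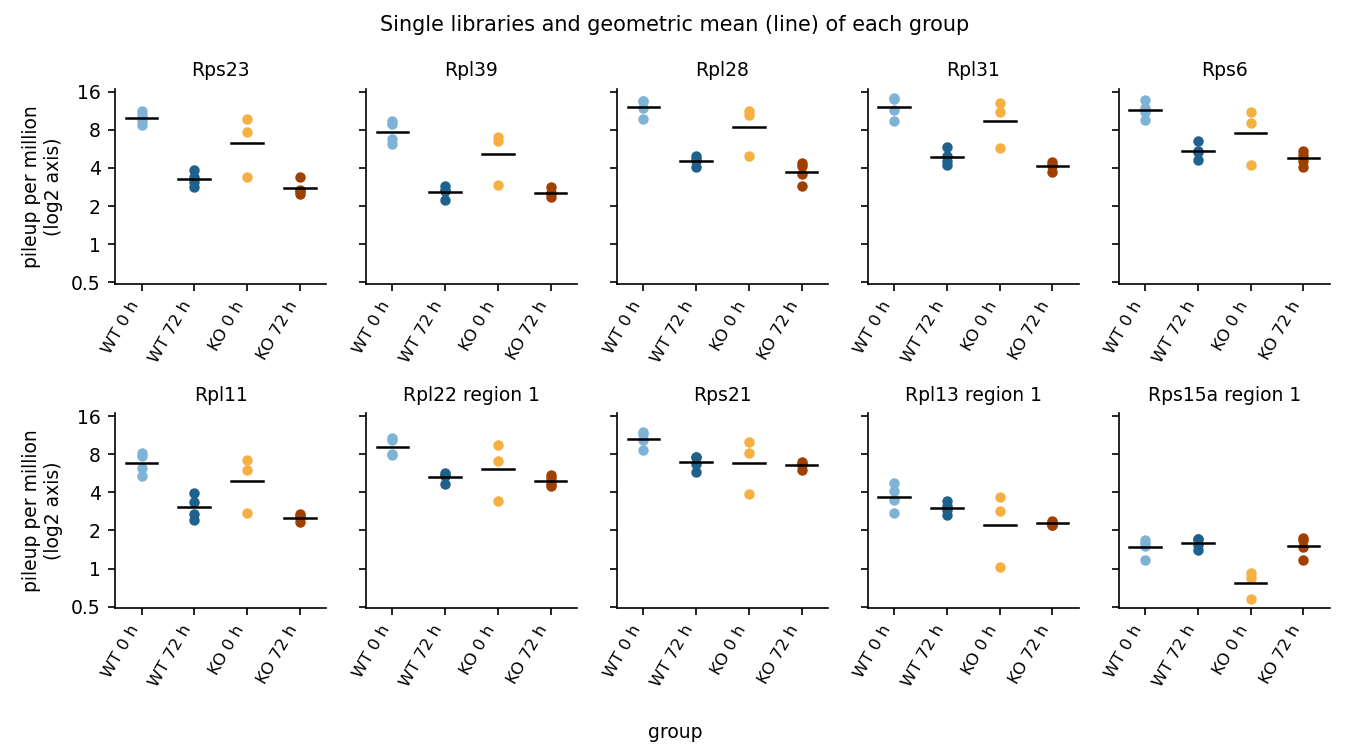
Pileup in ppm (log2 axis) in every library for 10 member regions, by group; points are libraries and lines are geometric means. Rps23, Rpl39, Rpl28 and Rpl31 are higher in all wild-type 0 h libraries than in any 72 h library, the 2 times overlap at Rpl13 region 1, and Rps15a region 1 is lowest in knockout at 0 h (0.574 to 0.925).

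In knockout cells 54 of the 81 regions fell with activation and 1 rose, beside 39.7% and 7.57% of all regions, 47.3% in all (limma, adjusted p under 0.05), with a median member difference of −0.75 (all −0.50). With fold enrichment the median was −0.34 (all −0.23), with 38 lower and 0 higher beside 30% and 6.02%. All 54 regions lower in log2 ppm were also lower in wild type. The count rests on the 0 h libraries. Without knockout library 3 at 0 h, 79 members fell and 1 rose (74.3% and 5.9% of all regions). Without library 1 the counts were 21 and 1 (20.4% and 7.59%), and without library 4 they were 19 and 1 (20% and 10.1%). Groups without overlap were fewer, 22 lower and 1 higher of 81, beside 19.6% and 6.91% of all regions. The largest falls were at Rpl31, Rpl28, Rps23, Rps3 region 2 and Rpl12 region 1. Rpl31, a large-subunit protein near the exit of the tunnel (chr1:39367316-39368709), had 9.33, 11.4, 14.3 and 14.1 in the wild-type libraries at 0 h, 4.58, 5.84, 4.94 and 4.20 in wild type at 72 h, 11.0, 5.74 and 13.1 in knockout at 0 h, and 3.69, 4.24, 4.48 and 4.12 in knockout at 72 h. Its knockout difference was −1.19 (SE 0.28) (limma adjusted p = 0.000183) and its wild-type difference −1.32 (SE 0.26) (2.41e-06). Rps3, which lines the channel where the messenger RNA enters (chr7:99482877-99484128), had 10.8, 4.86 and 11.4 in knockout at 0 h and 4.18, 3.47, 3.76 and 3.51 at 72 h. The difference was −1.18 (SE 0.28) (limma adjusted p = 0.000228), and here even library 3 lay above the 72 h libraries. Rpl12, a protein at the base of the stalk that binds elongation factors (chr2:32961370-32962478, also near Lrsam1), had 4.52, 2.22 and 5.84 at 0 h and 1.60, 1.78, 2.13 and 1.54 at 72 h. The knockout difference was −1.15 (SE 0.29) (limma adjusted p = 0.000577). At Rpl28 and Rps23 the knockout differences were −1.18 and −1.18 (limma adjusted p = 0.000202 and 0.000279).

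Since most open regions fell with activation, each library was also centred on its median log2 pileup over the 21176 regions, so that a difference is relative to the typical open region. On that scale 49 member regions were lower and 3 higher in wild type, beside 33.3% and 29.8% of all regions (63.1% in all). In knockout 47 were lower and 5 higher, beside 32.9% and 29.3% (62.1% in all). The median member difference was −0.25 in wild type and −0.29 in knockout (all regions −0.03 and −0.04). In both genotypes 38 regions were lower and 3 higher. Member regions are also tall, and tall regions fell more: the 5294 with the highest mean level had medians of −0.21 and −0.20, with 52.3% and 49.6% lower. Regions that hold any RefSeq start had medians of −0.11 in both, with 37.6% and 36.8% lower. Under quantile normalization 31 members were lower and 7 higher in wild type (29.9% and 27.8% of all regions), and 32 and 7 in knockout (29.6% and 27.1%).

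**Figure D3:**
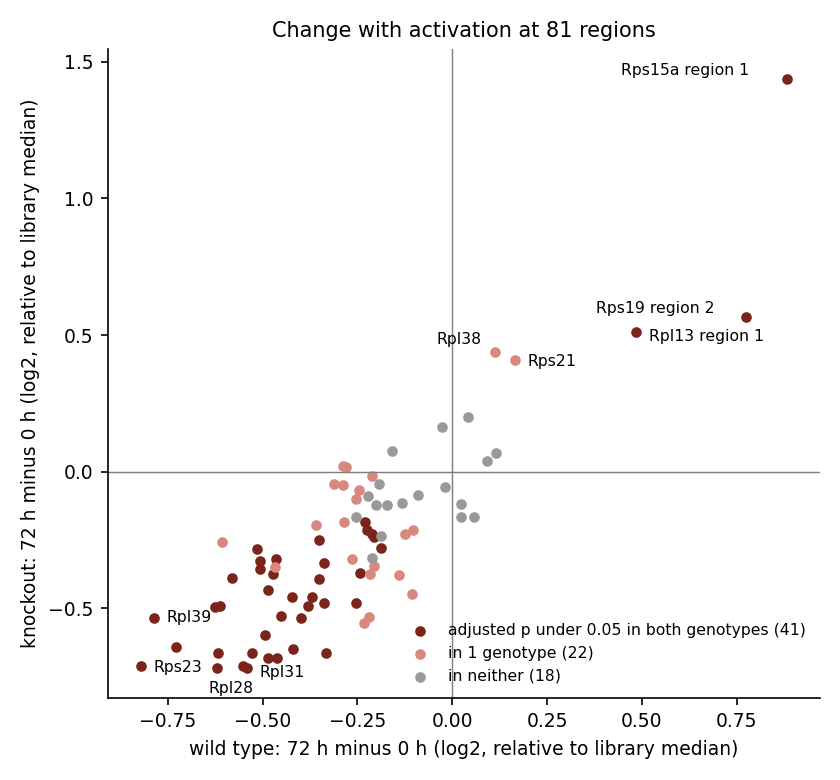
Difference between 72 h and 0 h relative to the library median (log2) in wild type (x axis) and knockout (y axis) for the 81 regions; colour gives in how many genotypes the limma adjusted p was under 0.05 (41 in both, 22 in 1, 18 in neither). Most points lie below 0 on both axes, and 3 (Rpl13 region 1, Rps19 region 2, Rps15a region 1) rose in both.

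Members with roles outside the ribosome or in T cells took different places in this range. Rps6, the small-subunit protein phosphorylated by S6 kinases after mTORC1 signalling, had 9.59, 11.0, 11.8 and 13.7 in the wild-type libraries at 0 h, 6.57, 5.41, 5.40 and 4.67 in wild type at 72 h, 9.04, 4.21 and 11.1 in knockout at 0 h, and 4.09, 5.09, 4.57 and 5.47 in knockout at 72 h. The wild-type times did not overlap, and the difference was −1.06 (SE 0.26) in log2 ppm (limma adjusted p = 0.000132) and −0.29 relative to the median (0.00480). Rpl5 and Rpl11, which bind Mdm2 together and so link ribosome assembly to p53, had wild-type differences of −1.38 (SE 0.27) and −1.16 (SE 0.27) (limma adjusted p = 1.51e-06 and 5.73e-05). Rpl5 region 1 had 6.20, 8.17, 7.48 and 9.98 in wild type at 0 h and 3.28, 3.59, 2.37 and 2.92 at 72 h. Rpl11 had 5.35, 6.28, 8.13 and 7.80 and 3.36, 3.96, 2.41 and 2.68. At both genes the 0 h and 72 h libraries of wild type did not overlap.

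Rps19, the gene most often mutated in Diamond-Blackfan anaemia, had 9.77, 9.83, 10.4 and 11.0 at its start region in wild type at 0 h and 5.96, 6.46, 5.55 and 4.67 at 72 h. It fell by 0.86 in log2 ppm (limma adjusted p = 0.00181), while relative to the median the difference was −0.09 (0.358). Rpl22, whose loss blocks the development of αβ T cells in mice, had 7.94, 8.03, 10.4 and 10.8 in the wild-type libraries at 0 h, 5.35, 5.70, 5.44 and 4.67 in wild type at 72 h, 7.03, 3.40 and 9.40 in knockout at 0 h, and 4.63, 5.21, 4.48 and 5.47 in knockout at 72 h. Its start region fell in log2 ppm in wild type (−0.80 (SE 0.26), limma adjusted p = 0.00392), and the values relative to the median were −0.03 in wild type and 0.16 in knockout (0.804 and 0.127). At neither start region did the difference from the typical open region pass the test.

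Rps27a, which encodes ubiquitin fused to a ribosomal protein (region also near Clhc1), had 13.3, 14.6, 14 and 17.9 in wild type at 0 h and 7.34, 6.89, 7.70 and 6.14 at 72 h. It fell in wild type (−1.09 (SE 0.26), limma adjusted p = 7.44e-05), and in knockout the difference was −0.51 (SE 0.28) (0.111), or −0.97 (3.69e-08) without knockout library 3 at 0 h. The X-linked Rps4x had 3.48, 4.24, 5.10 and 4.43 at 0 h and 1.86, 2.39, 1.65 and 1.75 at 72 h at its start region and fell by 1.17 in wild type on the log2 scale (limma adjusted p = 7.06e-05). Rpl10a, a protein of the ribosome's exit side for transfer RNA, fell by 1.04 in wild type on the log2 scale (limma adjusted p = 0.000284; relative to the median −0.26, 0.0515). Of the paralogs, Rps27l, a p53 target, fell in log2 ppm in wild type (−0.96, limma adjusted p = 0.000805). The region counted at Rpl3l, the paralog of striated muscle, lies 8 bp outside the gene and near Msrb1; its difference was −0.75 in log2 ppm (limma adjusted p = 0.00777) and 0.02 relative to the median (0.839). Several knockout calls of these genes depended on single libraries: those of Rps6, Rpl5, Rpl10a and Rps27l ended without knockout library 1 or library 4 at 0 h (among other libraries), and those of Rpl11 and Rps4x ended without library 4.

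A few regions moved against the others relative to the median. Rpl13 region 1, which holds the start shown above (chr8:123101770-123103641), had 2.77, 4.07, 3.48 and 4.71 in the wild-type libraries at 0 h, 3.45, 2.90, 2.64 and 3.11 in wild type at 72 h, 2.86, 1.03 and 3.70 in knockout at 0 h, and 2.23, 2.38, 2.35 and 2.2 in knockout at 72 h. The times overlapped in both genotypes, the difference in log2 ppm was −0.29 (SE 0.27) in wild type (limma adjusted p = 0.331), and relative to the median it rose by 0.48 in wild type and 0.51 in knockout (0.00198 and 0.00262). It was the member start region that rose in both genotypes on that scale. Rps21 (region also near Cables2) and Rpl38, a protein known for the selective translation of Hox messenger RNAs, rose relative to the median in knockout (0.41 and 0.44, limma adjusted p = 3.83e-05 and 0.00185). In wild type their values on that scale were 0.16 and 0.11 (0.0596 and 0.393), and in log2 ppm both fell (−0.61 and −0.66, 0.0266 and 0.0207).

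Rps15a region 1 (chr7:118102237-118104979), at the end of the gene away from its start, was the single member region that rose in log2 ppm. It had 1.16, 1.69, 1.5 and 1.58 in the wild-type libraries at 0 h, 1.70, 1.52, 1.72 and 1.40 in wild type at 72 h, 0.847, 0.574 and 0.925 in knockout at 0 h, and 1.47, 1.70, 1.75 and 1.17 in knockout at 72 h. The 3 knockout libraries at 0 h were below all others. The knockout difference was 0.97 (SE 0.30) (limma adjusted p = 0.00412), the wild-type difference 0.11 (SE 0.27) (0.730), and the test of the difference between genotypes gave 0.86 (SE 0.40) with an adjusted p of 0.856. The start region of the same gene, Rps15a region 2, fell in wild type (−0.79, limma adjusted p = 0.00511). Rps19 region 2, which lies 111 bp outside the gene and 5009 bp from the start, had 1.25, 1.76, 2.06 and 2.06 in wild type at 0 h and 1.62, 1.63, 2.26 and 1.56 at 72 h. Those ranges overlapped, and relative to the median it rose by 0.78 (limma adjusted p = 5.29e-05; in log2 ppm −0.001, 0.997).

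Beside the main promoter peaks, 24 member regions were called in some libraries and not in others. None held a listed start: 18 lay away from one, and for 6 no start was listed. A two-sided exact conditional test of peak presence, with genotype as stratum and adjustment over 83743 regions, called 3 of the 105 member regions more often at 72 h and 3 less often, beside 18.4% and 4.65% of all regions. Regions called in all 15 libraries cannot be called by this test, and they were 77.1% of the member regions but 25.3% of all regions. The member counts and the shares of all regions are therefore not directly comparable. Weak peaks fall under the caller's threshold, so absence from a list does not show closed chromatin.

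The gained regions were low. Rpl26 region 2 (chr11:68902366-68902621), inside the gene 800 bp from its start, was called in 8 of 8 libraries at 72 h and 0 of 7 at 0 h (exact p = 0.000408, the smallest the test can give; adjusted 0.00399), with pileups of 0.649, 0.653, 0.459 and 0.817 in wild type and 0.579, 0.565, 0.512 and 0.515 in knockout. Rpl23 region 1 (chr11:97776716-97777450), 76 bp outside Rpl23 and near 1700001P01Rik, was called in 7 of 8 against 0 of 7 (exact test, adjusted p = 0.0121). Its pileups at 72 h were 1.01, 0.943, 0.881 and 0.933 in wild type and 1.11, 0.470 and 0.655 in knockout. Rps9 region 2 (chr7:3707014-3707831), 117 bp outside the gene, was called in 8 of 8 against 2 of 7 (exact test, adjusted p = 0.0308), with 2.11, 2.79, 2.41 and 1.44 in wild type and 1.16, 1.01, 1.88 and 1.40 in knockout at 72 h and 1.42 and 1.39 in the 2 untreated wild-type libraries that had it. The start region of Rps9 fell in wild type, while this flank was called more often at 72 h.

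Of the regions called less often at 72 h, 2 are described here. Rpl12 region 2 (chr2:32962794-32963298), inside the gene 1082 bp from its start, was called in 7 of 7 libraries at 0 h and 1 of 8 at 72 h (exact test, adjusted p = 0.0121). Its pileups were 2.54, 3.45, 4.09 and 4.04 in wild type and 3.21, 1.22 and 2.73 in knockout at 0 h, and 0.748 in the knockout library at 72 h that had it. Rpl37rt region 1 (chr5:115103326-115103548) was called in 5 of 7 against 0 of 8 (exact test, adjusted p = 0.0443), with 0.586, 0.728 and 0.990 in wild type and 0.741 and 0.877 in knockout. Of the 6 called regions, 3 overlapped the gene itself: Rpl26 region 2, Rpl12 region 2 and Rpl37rt region 1.

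**Figure D4:**
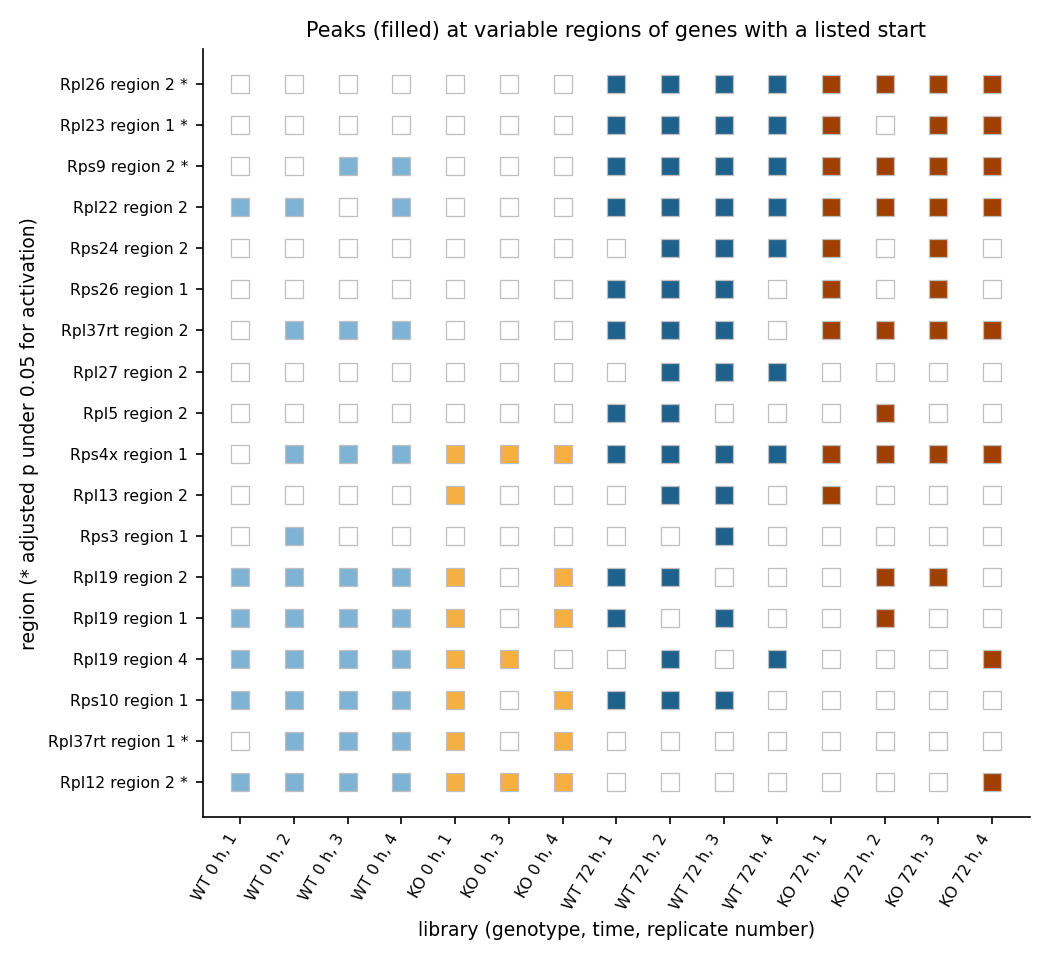
Peak calls (filled squares, coloured by group) at the 18 member regions that lay away from a listed start and were not called in all 15 libraries, with the 7 untreated libraries on the left and the 8 activated on the right; an asterisk marks an adjusted exact p under 0.05. Rpl26 region 2 is filled in all 8 libraries at 72 h and in none at 0 h, and Rpl12 region 2 in all 7 at 0 h and 1 of 8 at 72 h.

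Between genotypes no member region was called in log2 ppm at either time, and none in the interaction of genotype and activation (limma, 0 of 81 in each, beside 0% of all regions). The lowest limma adjusted p among members were 0.126 at 0 h, 0.812 at 72 h and 0.856 in the interaction. At 0 h all 81 differences were below 0, from −0.94 to −0.30 with a median of −0.51. Knockout library 3 was the lowest of its group at 81 of the 81 regions. It was also low over all 21176 regions called in every library, with a median of 1.80 ppm against 3.85 and 4.38 in knockout libraries 1 and 4, so the shift was not particular to members. Without knockout library 3 the median member difference was −0.12 and 0 members were called, beside 0.00472% of all regions lower and 0.00944% higher. Without library 4, 76 members were called lower and 0 higher, beside 81.5% and 0.00944% of all regions. Relative to the median the 0 h differences ran from −0.39 to 0.24 and none was called (0.0331% of all regions were called higher and 0% lower); the interaction called none either (0.00472% of all regions lower, 0.00472% in all).

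At 72 h the median member difference was −0.20 in log2 ppm (range −0.54 to 0.04). Relative to the median 1 member was called higher in knockout, Rpl15 (0.28, limma adjusted p = 0.0427), beside 0.94% of all regions higher, 0.264% lower and 1.2% in all. In log2 ppm its difference was 0.04 (0.945), and its libraries overlapped (7.5, 7.58, 7.16 and 6.03 in wild type, 6.76, 7.67, 6.74 and 7.91 in knockout). Without knockout library 3 at 0 h, 1 member was called lower in log2 ppm at 72 h, Rpl6, and 0 higher, beside 4.96% and 0.085% of all regions. Rpl6 had 1.95, 2.36, 2.37 and 1.79 in wild type and 1.69, 1.33, 1.41 and 1.36 in knockout at 72 h, groups that did not overlap, and a difference of −0.54 (SE 0.27) (limma adjusted p = 0.812 with all libraries, 0.0394 without that library). The exact test of peak presence by genotype called 0 of the 105 members and 0 of 83743 regions. With 3 or 4 libraries per group and adjustment over 83743 regions, a single region could not pass this test alone. The 0 therefore does not show that presence was alike in the genotypes. At the 7 members with the interferon regulatory factor letters (Rpl27a, Rpl38, Rpl4, Rpl5, Rps19, Rps23 and Rps7, in this order), the genotype differences of the start region at 0 h were −0.43, −0.69, −0.59, −0.75, −0.51, −0.65 and −0.54, with limma adjusted p of 0.181, 0.126, 0.136, 0.126, 0.145, 0.126 and 0.142. Without knockout library 3 they were −0.10, −0.32, −0.24, −0.36, −0.13, −0.21 and −0.13. At 72 h they were −0.21, −0.06, −0.16, −0.09, −0.20, −0.23 and −0.05, and none passed the test. Standard errors of the differences with all libraries were 0.26 to 0.30, so differences of this size were not resolved in that fit. Leaving out knockout library 3 changes the shared spread, and there the limma adjusted p at 0 h was 0.966 to 0.992 at the 7 regions.

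Other genes of ribosome production and translation were measured the same way. Rps19bp1, Rpl7l1 and Rpl22l1 were counted with the ribosomal proteins outside the naming rule. Tpt1, Npm1, Nap1l1, Hnrnpa1 and Btf3, which are not all translation factors, were counted with the translation factors. Ribosomal proteins outside the naming rule (Rplp0, Rplp1, Rplp2, Rpsa, Fau and others, 13 regions) fell at 12 regions in wild type and 8 in knockout (92.3% and 61.5%, beside 65.2% and 39.7% of all regions), or 13 in knockout without library 3 at 0 h (74.3% of all), and relative to the median 5 were lower and 1 higher in wild type (median −0.19) and 7 lower in knockout (−0.21), beside 33.3% and 32.9% of all regions lower. The stalk proteins Rplp2 and Rplp1 had wild-type differences of −1.36 and −1.20 in log2 ppm (limma adjusted p = 1.44e-06 and 2.54e-05). Of translation factors with TOP messenger RNAs (24 regions), 22 fell in log2 ppm in wild type and 10 in knockout (91.7% and 41.7%, the latter near the 39.7% of all regions; 21 without library 3), led in wild type by the initiation factor subunit Eif3h at −1.39 (limma adjusted p = 7.83e-07). Relative to the median 6 (25%, below the 33.3% of all regions) were lower and 2 higher in wild type (median −0.06), and 8 (33.3%, near the 32.9% of all) and 3 in knockout (−0.14).

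Of ribosome biogenesis and RNA polymerase I genes (40 regions), 32 fell in wild type (80%, beside 65.2% of all regions) and 18 in knockout (45%, beside 39.7%; 37 without library 3) in log2 ppm. Relative to the median 13 were lower and 7 higher in wild type (median −0.11) and 14 and 5 in knockout (−0.15); the shares lower, 32.5% and 35%, were near the 33.3% and 32.9% of all regions. The largest falls there exceeded those of any member: Nop58, a core protein of the particles that methylate ribosomal RNA, at −1.83 and Wdr12 at −1.68 in wild type (limma adjusted p = 1.41e-10 and 3.34e-09). Mitochondrial ribosomal protein genes (89 regions) had 70 lower and 1 higher in log2 ppm in wild type (78.7% lower), and 35 lower and 1 higher in knockout (39.3%, near the 39.7% of all regions; 81 lower without library 3). Relative to the median 31 were lower and 15 higher in wild type (median −0.11) and 28 and 12 in knockout (−0.10), shares lower of 34.8% and 31.5% that were near those of all regions. Whether the lists differ from each other was not tested.

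**Figure D5:**
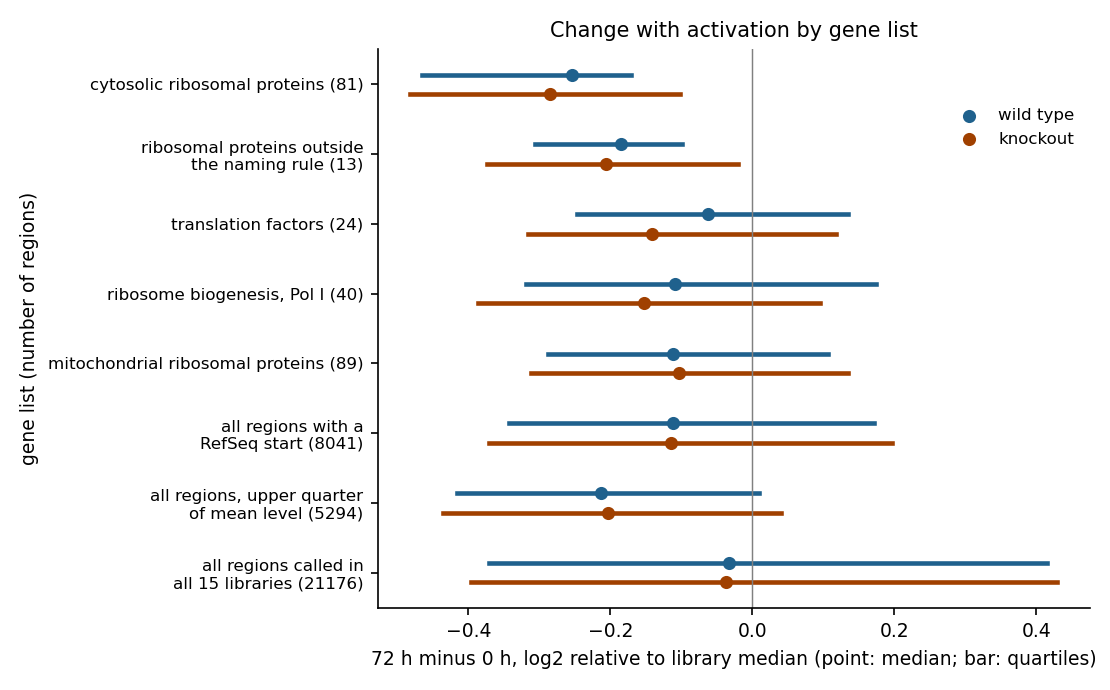
Difference between 72 h and 0 h relative to the library median (log2) for gene lists and for sets of all regions, in wild type and knockout; points are medians over regions and bars run from the lower to the upper quartile. Cytosolic ribosomal proteins have the lowest medians (−0.25 and −0.29); the regions with the highest mean level (−0.21 and −0.20) and ribosomal proteins outside the naming rule (−0.19 and −0.21) come next.

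Small nucleolar RNAs, which guide the modification of ribosomal RNA, are encoded in introns of many ribosomal protein genes: 54 annotated ones lay in 27 members. The 28 regions of these hosts had median differences relative to the library median of −0.29 in wild type and −0.37 in knockout, and the other 53 regions −0.25 and −0.23. On this scale 37.6% of all start regions were lower in wild type, beside which the following counts stand. By promoter letters, start regions with CCGGAAG had a median of −0.27 in wild type (22 genes, 14 lower) and those without it −0.29 (33 genes, 19 lower). With the palindrome 2 of 6, near that share, were lower (median −0.25), and with a TOP shape 6 of 12 (−0.22, against −0.29 for the other 43). Of the 6 members with CACGTG (Rpl13a, Rpl14, Rpl19, Rpl23, Rpl34 and Rps19), 0 were lower in wild type relative to the median (median −0.11, against −0.33 for the other 49, of which 33 were lower). These are descriptions over few genes, and no test of a motif was made.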

How the data were processed

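Peak lists of 15 ATAC-seq libraries were used, with 3 or 4 libraries per group; 8 lists of pooled replicates were not used. The tools named are Trim Galore 0.5.0, Bowtie2 2.2.9, MACS2 and HOMER 4.10.4, with the build mm10, per the submitters' processing notes. MACS2 2.1.1.20160309 called peaks in each library without a control, at a q cutoff of 0.05 and keeping 1 fragment per position, per the file headers. The deposited pileup is a coverage signal in whole fragments, the deposited fold enrichment is a ratio to the local background, and the authors' −log10 q value was used as a filter of at least 5 in an alternative. Wild-type library 4 came from an alignment numbered 5, per the file headers.

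Peaks were merged when they overlapped by at least 1 bp, giving 111393 regions; 83743 were called in at least 2 libraries. Pileup was divided by the fragments left after filtering and multiplied by 1000000 (ppm). Regions called in all 15 libraries (21176) were compared as log2 values, with no pseudocount, by limma 3.58.1 (R 4.3.3, intensity trend) over all 4 groups together, with Benjamini-Hochberg adjustment and a threshold of 0.05. Gene bounds and promoter sequences came from RefSeq tables of GRCm38.p6. Peak presence was tested with a two-sided stratified exact test. The tests were checked on simulated data. Alternatives were fold enrichment in place of pileup, other normalizations, filters, left-out libraries and a replicate block. Members, lists and tests were chosen with earlier results of these data known.

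Regions named in the text are the 5 largest changes per comparison and direction, those called by presence, the 5 tallest and 5 lowest regions, and 12 genes chosen by role; up to 3 genes per comparison and direction come from each other list. Rps21, Rpl38, Rpl13 and Rpl6 were added after their values were seen. Some items that this rule names are not reported here.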

Additional observations from a re-analysis of the deposited data

Results flagged for a closer look

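Of 87 groups of 4 libraries examined over 29 named regions, 3 held a library that stood apart from the other 3 by more than Dixon's critical value; chance gives about 1 in 20 groups. In wild type at 72 h, library 3 was lowest at Rps18 region 1 (2.22 ppm against 2.83 to 2.92 in the others). In the same group library 4 was lowest at Rps29 (6.26 against 8.35 to 8.60), and library 3 was highest at Rps19 region 2 (2.26 against 1.56 to 1.63). These are 3 different regions, and 2 of the 3 involve wild-type library 3 at 72 h.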

How the results depend on the processing

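Depth limits the low regions and the calling of weak peaks. The arm of 3 libraries, with library 3 far from the others, limits the knockout contrasts at 0 h. All 4 groups share 1 estimate of the spread, so that library also enters the other comparisons. Without it, genotype at 72 h called 4.96% of all regions lower and 0.085% higher, beside 0% with all libraries. The wild-type count of 78 regions was 38 under quantile normalization and 47 to 53 with median centring and 1 library left out (added after seeing the data; 47, 48, 49 or 50 where that library was wild type); the authors' fold enrichment in place of pileup gave 59, and 38 in knockout, and leaving out a library in ppm gave 73 to 78. The knockout count of 55 ranged from 20 to 80 with a library left out (22 without knockout library 1 at 0 h, 20 without library 4), and from 41 to 53 with centring as well. Genotype at 0 h gave 0 to 76 (76 without knockout library 4) and genotype at 72 h 0 to 1, with 1 under median centring, 1 in regions called in the other 14 libraries (added), and 0 to 3 with centring and a library left out. The interaction stayed at 0 throughout, genotype in peak presence at 0, and activation in peak presence gave 4 to 6 with a library left out, 7 with regions called in at least 4 libraries, 5 or 6 with other thresholds or tests, and 3 with regions overlapping the gene bounds. With the replicate number as a block the counts were 78 in wild type and 43 in knockout, each within 1.5 times the value without it; the deviations of same-numbered libraries correlated at −0.167 to 0.228 (21 pairs, 1 above 0.1), so the numbers were not taken to pair libraries. Of the regions whose values the text gives, 5 changed sign with median centring in wild type: Rps19 region 2 (0.78), Rpl3l (0.0235), Rpl13 region 1 (0.48), Rps21 (0.16) and Rpl38 (0.11). The cause of these changes was not tested. The alternative that peaks cover 0.5 of a region or of themselves is met by every peak of a merged region and was not run; peaks covering 0.5 of the region were used instead.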
